A study of Mus musculus with 4 samples.

Results

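Leukocyte integrins are the adhesion receptors that immune cells use to hold on to other cells and to matrix. The 10 genes described here encode chains of such receptors, among them the markers of dendritic cells (DCs) Itgax (CD11c) and Itgae (CD103). The others are Itgam (CD11b), Itgad (CD11d), Itgal (CD11a), Itga4, Itga6 and the beta chains Itgb2, Itgb7 and Itgb1. The genes were taken by symbol, through the Ensembl identifier that carries it, and all 10 were found among the 46078 genes counted. The study compared CD103-positive DCs of mice with genotype CD11c-cre (Ctrl, 2 libraries) with those of mice with genotype CD11c-cre-Il33flx/flx (Il33flx, 2 libraries), whose Il33 alleles are flanked by loxP sites. Both groups carried Cre recombinase under the CD11c promoter. A difference between them is thus not one between mice with and without the transgene. By design, deletion is meant for cells in which that promoter has been active. Where deletion took place was not measured. Mice of both groups had received EL4-Flt3 tumor cells, a derivative of the T lymphoma line EL4, 10 days earlier. Cells of spleen plus mesenteric lymph node were sorted to carry CD103, CD11b, CD45 and MHC class II but no CD64. The labels give no age, sex or strain, and do not say whether each library came from 1 animal or a pool, so p-values reflect only how far these libraries spread, technical spread included.

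An integrin is made of an alpha and a beta chain, and neither reaches the cell surface well without the other. Itgb2 pairs with Itgal to form LFA-1, with Itgam to form Mac-1, with Itgax to form the receptor that names CD11c-positive cells, and with Itgad. These receptors bind ICAM adhesion molecules and, for Itgam and Itgax, complement fragments. Itgb7 pairs with Itgae, whose ligand is the epithelial E-cadherin, and with Itga4, whose ligand in that pair is the gut vessel addressin MAdCAM-1. Itgb1 pairs with Itga4 to bind VCAM-1 and fibronectin and with Itga6 to bind laminin. CD11c is the classic surface marker of mouse DCs, and CD103 marks type 1 conventional DCs and many DCs of the intestine. CD11b and CD103 were used to sort these cells, so the presence of Itgam and Itgae is a property of the gate and not a finding.

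Libraries held 67707682 to 81217828 gene counts, and each of the 10 genes had between 493 and 160999 counts in a library, so that counting error is small beside the spread between libraries. Values are CPM, counts scaled to a common library total after normalization. Of the genes of the gate, Ptprc (CD45) had 563 to 1012 CPM and Fcgr1, the excluded CD64, 3.66 to 5.50 CPM. The summed level of 6 type 1 conventional DC markers was 5007 to 6293 CPM and that of 6 type 2 markers 426 to 488 CPM. The library Ctrl 1 stood apart from the rest on the leading principal component of all genes, at -70.1 against 18.8 to 26.2 for the other libraries. Il33, the targeted gene, read 4 and 8 counts in Ctrl against 4 and 0 in Il33flx, too few to check the genotype labels.

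The promoter that drives Cre in these mice is that of Itgax, so its sequence at the endogenous gene is shown with those of Itgam, the neighbouring gene used for sorting, and Itgb7, the highest of the 10 genes per kilobase of exon in each of the 4 libraries. Each run holds 250 bases before and 50 bases from the start site on, from RefSeq on GRCm38.p6, where 5 of the 10 genes had an entry. Itgax lies at chr7:128129300-128129599 and Itgam at chr7:128062390-128062689, both on the plus strand, and Itgb7 at chr15:102231886-102232185 on the minus strand. Capitals mark matches, on either strand, to GAGGAA (an ETS core as in sites of the myeloid factor PU.1), TGTGGT (RUNX), TGANTCA (AP-1), GGGCGG (the GC box of Sp and KLF factors) and TATAAA (the TATA box). No marked matches overlap.
Itgax: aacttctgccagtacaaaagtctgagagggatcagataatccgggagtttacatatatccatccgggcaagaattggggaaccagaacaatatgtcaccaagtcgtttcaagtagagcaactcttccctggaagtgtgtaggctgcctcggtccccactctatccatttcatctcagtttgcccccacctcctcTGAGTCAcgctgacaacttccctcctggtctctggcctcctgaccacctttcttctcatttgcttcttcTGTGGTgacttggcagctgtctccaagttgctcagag
Itgam: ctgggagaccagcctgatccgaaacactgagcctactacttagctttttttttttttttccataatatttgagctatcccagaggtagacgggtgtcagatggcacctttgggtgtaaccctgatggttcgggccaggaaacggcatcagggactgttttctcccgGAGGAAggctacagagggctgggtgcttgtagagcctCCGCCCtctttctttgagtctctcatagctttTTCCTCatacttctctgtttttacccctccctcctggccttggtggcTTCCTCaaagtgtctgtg
Itgb7: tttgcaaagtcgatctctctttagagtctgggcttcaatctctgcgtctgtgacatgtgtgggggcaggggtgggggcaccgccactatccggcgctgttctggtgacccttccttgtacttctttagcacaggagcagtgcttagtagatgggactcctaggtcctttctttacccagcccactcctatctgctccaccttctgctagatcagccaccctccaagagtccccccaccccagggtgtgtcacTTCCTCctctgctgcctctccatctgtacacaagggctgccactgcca

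In these windows Itgam held 3 matches to GAGGAA and 1 to the GC box, Itgb7 held 1 match to GAGGAA, and Itgax held 1 match to AP-1 and 1 to RUNX. None of the 3 held TATAAA. Of 32851 promoter windows of the same length, 28.3% held GAGGAA, 35.7% the GC box, 16.8% the RUNX letters, 7.81% the AP-1 letters and 13.6% TATAAA. A match is a description of letters and not of a bound site. The transcript data do not show which factors acted on these windows, and the labels do not say which promoter segment the transgene holds.

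Itgam, Itgax and Itgad lie next to each other on chromosome 7 (GRCm38), at 128062640 to 128118491, 128129547 to 128150657 and 128154376 to 128223816, and Itgal lies on the same chromosome at 127296260 to 127335138. All 4 are on the plus strand. The others are spread over the genome, with Itgae on chromosome 11 (73090583 to 73147446), Itgb2 on 10 (77530252 to 77565708), Itgb7 on 15 (102215995 to 102231944), Itga4 and Itga6 on 2 (79255426 to 79333123 and 71745616 to 71858416) and Itgb1 on 8 (128685654 to 128733200). Itgax and Itgad are near copies over part of their length, which bears on how far their counts can be told apart. Of the 50-base windows of the longest coding Itgax transcript, 9.61% (384 windows) also occur in Itgad. Of the windows of Itgad, 22% (894 of 4056) also occur in other genes, Itgax among them. The longest exact run, 188 coding bases, joins exons 11 to 13 of Itgax (spanning 128135612 to 128136062) and exons 12 to 14 of Itgad (spanning 128189340 to 128189789), and reads as follows in the spliced transcript of either gene.
Itgax and Itgad: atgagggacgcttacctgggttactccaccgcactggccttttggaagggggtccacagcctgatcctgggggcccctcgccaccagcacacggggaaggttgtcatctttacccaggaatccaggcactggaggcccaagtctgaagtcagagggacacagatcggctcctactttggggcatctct

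Reads that fall wholly inside such a run do not align to 1 gene. Between Itgax and Itgam the longest exact run was 16 bases, and between Itgax and Itgal 17 bases. Itgad also shared exon bases with genes on the opposite strand, among them 70 bases with Cox6a2, which had 1.26 to 2.59 CPM, and 1124 exon bases of Itga4 overlapped Cerkl, at 0.873 to 1.74 CPM. Itgad further shared 330 exon bases with the pseudogene Gm17831 on its own strand, which has no row in the count table. Without a stated strand setting, reads from opposite strands cannot be told apart. Of the windows of Itgam, 72.4% also belong to Gm49368, a gene model of the annotation used here that overlaps it and has no row in the count table.

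None of the 10 integrin genes differed between the groups at an adjusted p below 0.05 in edgeR (0 of 10, adjusted p = 0.995 for each), where 0.00667% of all 14995 genes tested were called. At an unadjusted p under 0.05 stood 2 of the 10, Itgad and Itgax, against 3.26% of all genes. DESeq2, which called 0.353% of all genes, limma-voom and the edgeR fit that blocks on replicate number also called 0 of the 10. Itgad lay above both Ctrl libraries in each Il33flx library (1 gene of the 10, where 15.4% of all genes were), and Itgax and Itgb7 were lower in both (2 of the 10, where 14.9% of all genes were). The other 7 overlapped between the groups. The log2 fold change of Il33flx over Ctrl was below 0 for 7 of the 10, against 48.2% of all genes, with a median of -0.19 against 0.01 over all genes tested. Without Ctrl 1 the median of the 10 was -0.05. In bulk libraries fewer cells of a type and less RNA per cell cannot be told apart.

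**Figure D1:**
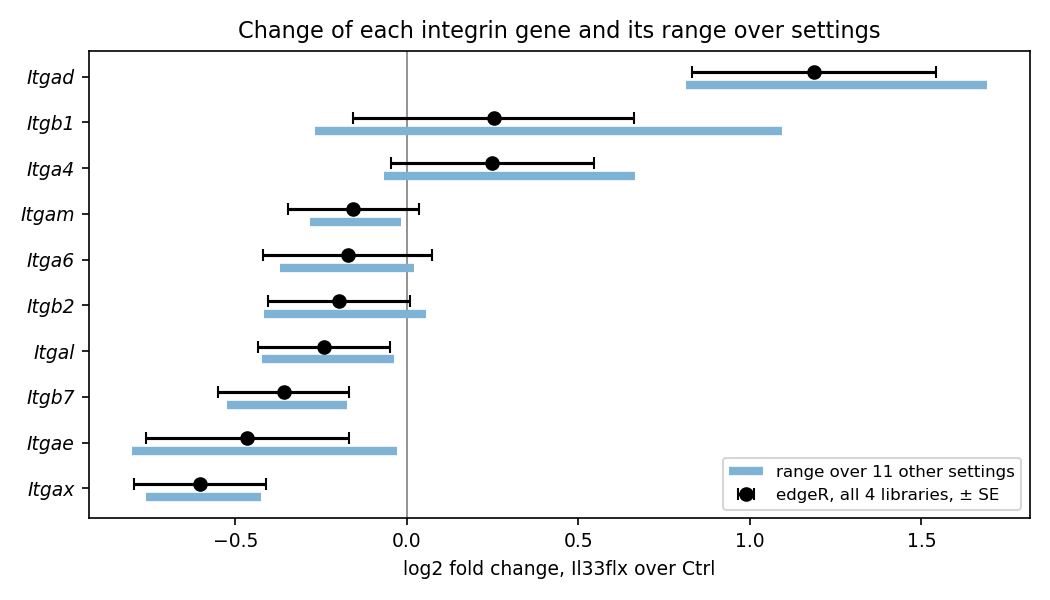
log2 fold change of Il33flx over Ctrl for each integrin gene, as the edgeR estimate from all 4 libraries with its standard error (black points and bars) and as the range over 11 other settings, including each library left out (blue bars). Itgad lies above 0 and Itgax, Itgae, Itgb7, Itgal and Itgam below 0 in each of these settings, while the ranges of Itgb1, Itga4, Itga6 and Itgb2 cross 0.

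Itgax, the CD11c chain, had lower values in Il33flx but did not pass the adjusted test. It read 647 (Ctrl 1) and 517 CPM (Ctrl 2), against 359 (Il33flx 1) and 407 CPM (Il33flx 2). Both Ctrl libraries were above both Il33flx libraries, with means of 582 ± 91.6 and 383 ± 34.0 CPM (SD, n = 2 each). The log2 fold change was -0.60 (SE 0.19), a ratio of 0.659 (unadjusted p = 0.0182 and adjusted p = 0.995 in edgeR), and 84.8% of all genes tested had a smaller one in size. Leaving out 1 library at a time gave -0.76 to -0.42, with adjusted p-values of 0.123 (without Ctrl 2) to 1 in edgeR. The authors' deposited table lists -0.62 for Itgax, with an adjusted p of 0.88. Among the marker lists, the sum of 6 type 1 conventional DC genes was also lower in both Il33flx libraries, at 6293 and 5751 against 5007 and 5437 CPM, with 2 of 6 genes lower without overlap (14.9% of all genes were). Most of this sum is Irf8, and the other 5 genes summed to 1476 and 1805 against 1662 and 1618 CPM and overlapped. The sum of 7 T cell and EL4 genes was lower in both Il33flx libraries too, at 131 and 87.7 against 82.2 and 72.1 CPM. Of these, 6 of 7 genes were lower without overlap. The part of either list in the Itgax difference was not tested.

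Itgad, the CD11d chain, best known from splenic macrophages, had higher values in Il33flx and did not pass the adjusted test either. It read 11.9 (Ctrl 1) and 6.55 CPM (Ctrl 2), against 24.9 (Il33flx 1) and 17.1 CPM (Il33flx 2), from 493 to 1758 counts. The groups did not overlap, and the spread within each group was wide. Means were 9.23 ± 3.79 CPM for Ctrl against 21.02 ± 5.49 CPM (SD, n = 2 each). Between the groups the log2 fold change was 1.19 (SE 0.36), a ratio of 2.28 (unadjusted p = 0.0139 and adjusted p = 0.995 in edgeR). Of all genes tested, 95.3% had a smaller one in size. Itgad was called higher only without Ctrl 1 among the fits run (log2 fold change 1.69, adjusted p = 0.0329, edgeR), and without another library the log2 fold change was 0.81 to 1.47, with an adjusted p of 0.239 (without Ctrl 2) to 1. The adjusted p was 0.333 with DESeq2, 0.279 with the replicate block in edgeR and 0.337 in the authors' deposited table.

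Erythroid, B cell and part of the neutrophil marker genes had higher values in Il33flx beside Itgad, with 0 called in edgeR. At an unadjusted p under 0.05 in edgeR stood 5 of 5 erythroid, 4 of 5 B cell and 2 of 6 neutrophil genes, against 3.26% of all genes. DESeq2 called 1 erythroid and 2 B cell genes, where it called 0.353% of all genes. Of the erythroid, B cell and neutrophil genes limma-voom called 0, as it did of all genes. With the replicate block edgeR called 2 erythroid genes and 1 neutrophil gene, where it called 19 genes higher and 14 lower in all. With 1 library left out at a time, the median log2 fold change was 2.53 to 4.47 for the erythroid genes. It was 0.92 to 1.38 for the B cell genes and 0.30 to 0.90 for the neutrophil genes. The summed level of 5 erythroid genes was 0.951 and 1.75 CPM in Ctrl against 17.0 and 8.94 CPM in Il33flx, and 5 of the 5 were higher in both Il33flx libraries. Slc4a1 and Klf1 of this list had no count in Ctrl 1. The sum of 5 B cell genes was 42.4 and 44.1 against 87.7 and 71.8 CPM, with 5 of 5 higher without overlap. The sum of 6 neutrophil genes was 196 and 199 against 422 and 285 CPM, with 3 of 6 higher without overlap. These were Elane, Mpo and Camp, while S100a8, S100a9 and Ly6g overlapped, and Ly6g had a log2 fold change of -0.20 in edgeR. The sum of 6 type 2 conventional DC genes was 458 and 426 against 488 and 470 CPM, with 2 of 6 higher without overlap. These were Irf4 and Clec4a4, and 0 of the 6 stood at an unadjusted p under 0.05 in edgeR. Most of this sum is Sirpa, at 298 and 258 against 319 and 277 CPM, which overlapped. Cd209a, Mgl2 and Clec10a overlapped too, and Clec10a had a log2 fold change of -0.35 in edgeR. Over all genes tested, 15.4% were higher in both Il33flx libraries, the share to set beside each of these counts. The sum of 7 macrophage genes overlapped between the groups, at 174 and 134 CPM in the controls against 170 and 136 CPM, with 0 of 7 apart. Their part in the Itgad difference was not tested.

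**Figure D2:**
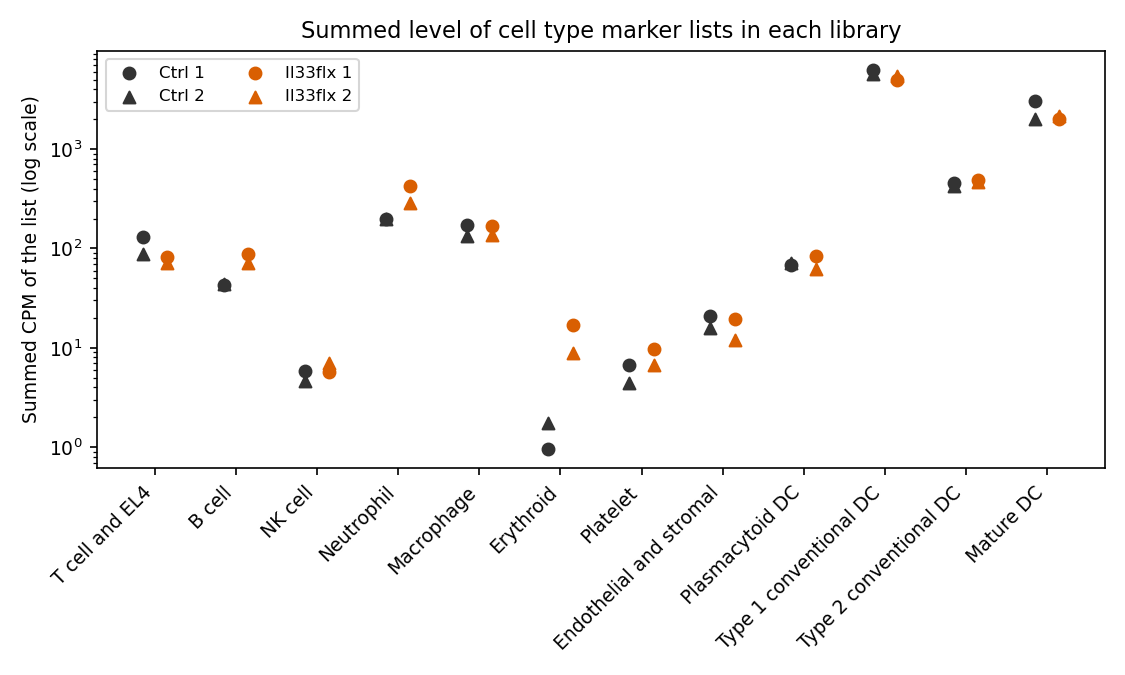
Summed CPM of each list of cell type marker genes (log scale) in each library, Ctrl in black and Il33flx in orange. The erythroid, B cell, neutrophil and type 2 conventional DC lists lie higher in both Il33flx libraries. The type 1 conventional DC list and the T cell and EL4 list lie lower in both. The other lists, macrophage among them, do not separate the groups.

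Itgal, the alpha chain of LFA-1, through which leukocytes bind ICAM-1, read 541 (Ctrl 1) and 419 CPM (Ctrl 2), against 420 (Il33flx 1) and 392 CPM (Il33flx 2). Ctrl 1 was the highest library and Ctrl 2 lay between the Il33flx libraries. Its log2 fold change was -0.24 (SE 0.19, adjusted p = 0.995, edgeR), and -0.04 without Ctrl 1. Itgam, the CD11b chain of Mac-1, had 128, 108, 114 and 97.8 CPM in the same order, and its groups overlapped. Its log2 fold change was -0.16 (SE 0.19, adjusted p = 0.995, edgeR) and -0.02 without Ctrl 1.

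Itgb2, the beta chain that these 4 alpha chains share, read 1730 (Ctrl 1) and 1259 CPM (Ctrl 2), against 1307 (Il33flx 1) and 1297 CPM (Il33flx 2). Ctrl 1 was high and the other 3 libraries lay close together. The log2 fold change of -0.20 (SE 0.21, adjusted p = 0.995, edgeR) became 0.06 without Ctrl 1.

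The make-up of the 4 partner chains was read within each library, where the scaling of libraries has no part, with CPM divided by the merged exon length in kilobases. Itgax made up 54.9% and 55.4% of the 4 in Ctrl, against 44.8% and 50.6% in Il33flx. Itgal made up 33.6% and 32.8% against 38.3% and 35.6%, Itgam 10.4% and 11.05% against 13.6% and 11.6%, and Itgad 1.08% and 0.748% against 3.31% and 2.27%. The share of Itgax was thus lower and those of the other 3 higher in both Il33flx libraries. The 4 shares add up to the whole and are not independent of each other. The sum of the 4 chains was 0.433 and 0.471 of the level of Itgb2 in Ctrl and 0.3898 and 0.395 in Il33flx, and Itgb2 was above its partners together in every library. The ratio of Itgax to Itgad was 51.0 and 74.1 in Ctrl and 13.5 and 22.3 in Il33flx. With 2 libraries a group, the smallest p an exact two-sided permutation test of such a ratio allows is 0.333, and the ratios are given as values.

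**Figure D3:**
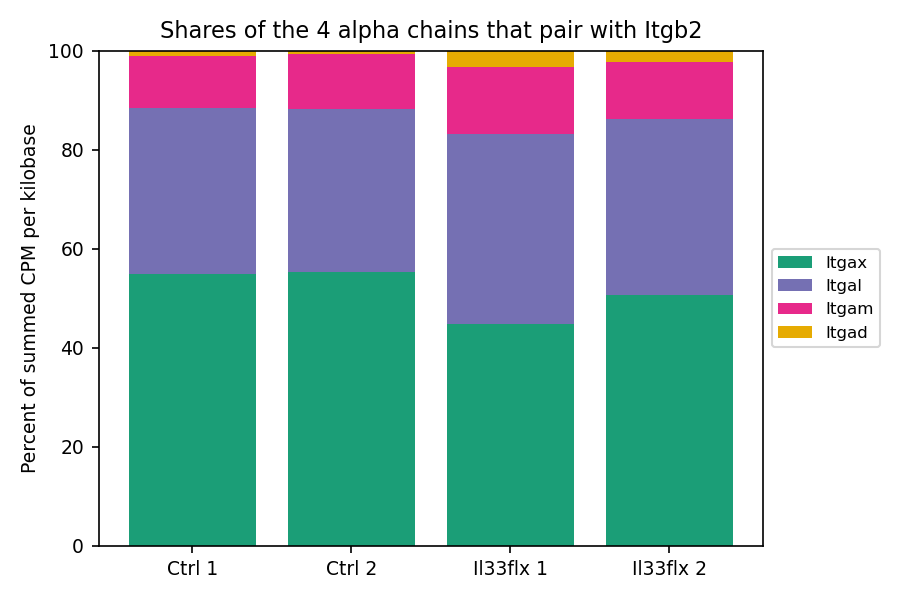
Share of each alpha chain gene in the summed CPM per kilobase of the 4 genes whose products pair with Itgb2, in each library. Itgax holds 54.9% and 55.4% in Ctrl, against 44.8% and 50.6% in Il33flx, and Itgad is the smallest share in all 4.

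Itgae, the CD103 chain used in the sort, read 116 (Ctrl 1) and 68.5 CPM (Ctrl 2), against 76.6 (Il33flx 1) and 56.8 CPM (Il33flx 2). Ctrl 1 was the highest library and Ctrl 2 lay between the Il33flx libraries. Means were 92.1 ± 33.4 and 66.7 ± 14.0 CPM (SD, n = 2 each). On the log2 scale the change was -0.47 (SE 0.30, unadjusted p = 0.163 and adjusted p = 0.995 in edgeR). Without Ctrl 1 it was -0.03, and without Ctrl 2 it was -0.80. It was -0.70 without Il33flx 1 and -0.23 without Il33flx 2. Its size thus rested on which libraries were used, the Ctrl libraries most of all. Mature DC markers other than Cd83 were also highest in Ctrl 1. The sum over 6 genes was 3042 CPM in Ctrl 1 and 1989 to 2178 CPM in the other 3 libraries. Ccr7 read 999 CPM in Ctrl 1, against 489 (Ctrl 2), 475 (Il33flx 1) and 415 CPM (Il33flx 2). Cd83, the most abundant of the 6, peaked in Il33flx 2 (1345 CPM, against 1266 CPM in Ctrl 1). The 7 T cell and EL4 genes summed to 131 CPM in Ctrl 1 and 72.1 to 87.7 CPM in the others. Lck was the largest part of this sum, with 62.4 CPM in Ctrl 1 and 27.6 to 32.6 CPM elsewhere. Among the 6 mature DC genes 1 was lower in both Il33flx libraries, and among the 7 T cell genes 6 were, against 14.9% of all genes. Their part in the Itgae values was not tested.

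Itgb7, the beta chain that pairs with Itgae and Itga4, read 2098 (Ctrl 1) and 1664 CPM (Ctrl 2), against 1411 (Il33flx 1) and 1521 CPM (Il33flx 2). Both Il33flx libraries were below both Ctrl libraries. Means were 1881 ± 307 and 1466 ± 77.3 CPM (SD, n = 2 each). In log2 terms the change was -0.36 (SE 0.19, unadjusted p = 0.105 and adjusted p = 0.995 in edgeR). Leaving out 1 library at a time gave -0.52 to -0.18, with the smallest change without Ctrl 1.

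Itga4, which forms a gut homing receptor with Itgb7 and VLA-4 with Itgb1, read 124 (Ctrl 1) and 208 CPM (Ctrl 2), against 229 (Il33flx 1) and 164 CPM (Il33flx 2). Ctrl 1 was the lowest library, and the groups overlapped. Its log2 fold change was 0.25 (SE 0.30, adjusted p = 0.995, edgeR), -0.07 without Ctrl 1 and -0.01 without Il33flx 1, so that no direction held. Per kilobase, Itgae stood at 2.86 of the level of Itga4 in Ctrl 1 and at 1.01 to 1.06 in the other 3 libraries, and the sum of Itgae and Itga4 was 0.0440 to 0.0650 of the level of Itgb7. Per kilobase, transcripts of Itgb7 thus exceeded those of its known alpha partners in every library by far more than those of Itgb2 exceeded its own.

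Itgb1, the most widely used integrin beta chain of the body, read 240 (Ctrl 1) and 623 CPM (Ctrl 2), against 533 (Il33flx 1) and 496 CPM (Il33flx 2). Ctrl 1 was far below the rest, and Ctrl 2 was the highest. The gap between the Ctrl libraries, -1.37 on the log2 scale, was larger than that of 88.7% of all genes tested. The log2 fold change between the groups was 0.25 (SE 0.41, adjusted p = 0.995, edgeR), with -0.27 without Ctrl 1 and 1.09 without Ctrl 2 (adjusted p = 0.119). Itga6, the laminin receptor chain, was low at 19.3 and 24.0 CPM in the controls against 16.5 and 22.0 CPM. Its groups overlapped, at a log2 fold change of -0.17 (SE 0.25, adjusted p = 0.995, edgeR).

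For 7 of the 10 integrin genes the log2 gap between the Ctrl libraries was larger than the log2 fold change between the groups, the exceptions being Itgax, Itgad and Itgb7. The median absolute log2 gap between Ctrl 1 and Ctrl 2 was 0.41 over the 10 integrin genes and 0.38 over all genes tested, while the gap between the Il33flx libraries was 0.20 and 0.23. The median absolute log2 fold change between groups was 0.25 and 0.21. Over all genes tested too, the median Ctrl gap was thus above the median fold change, so this order is not particular to the integrin genes. The gap sets single libraries against each other and the fold change sets groups of 2, whose means spread less. The measures are thus unlike. Ctrl 1 read above Ctrl 2 for 7 of the 10, and below it for Itgb1, Itga4 and Itga6.

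Per kilobase of exon, the order of levels over the 4 libraries was Itgb7 at 604 ± 109 CPM per kilobase (SD, n = 4), Itgb2 at 458 ± 72.7 and Itgb1 at 116 ± 40.2. Next came the alpha chain genes, with Itgax at 100.4 ± 26.6, Itgal at 67.4 ± 10.2 and Itgam at 22.3 ± 2.55. The lowest were Itgae at 17.3 ± 5.57, Itga4 at 13.0 ± 3.36, Itgad at 3.35 ± 1.73 and Itga6 at 2.27 ± 0.364. These SDs run over both groups. The ranges over libraries did not overlap between Itgb2 and Itgb1, between Itgal and Itgam, or between Itga4 and Itgad. They overlapped between the other neighbours. Read within each library, Itgb7 was above Itgb2 and Itgax above Itgal in 4 of 4 libraries, by either gene length. Itgam was above Itgae and Itgae above Itga4 in 4 of 4 by merged exons, but in 3 and 1 of 4 by the longest coding transcript. Itgb1 was above Itgax in 3 of 4 libraries by either length. With the length of the longest coding transcript in place of all merged exons, Itga6 read 4.75 in place of 2.27 CPM per kilobase and traded places with Itgad, and the order of the other 8 was kept. Itgal then stood at 84.8 and Itga4 at 18.5 CPM per kilobase. Itgam and Itgae, whose products the sort required, were thus below Itgax and Itgal at the RNA level.

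**Figure D4:**
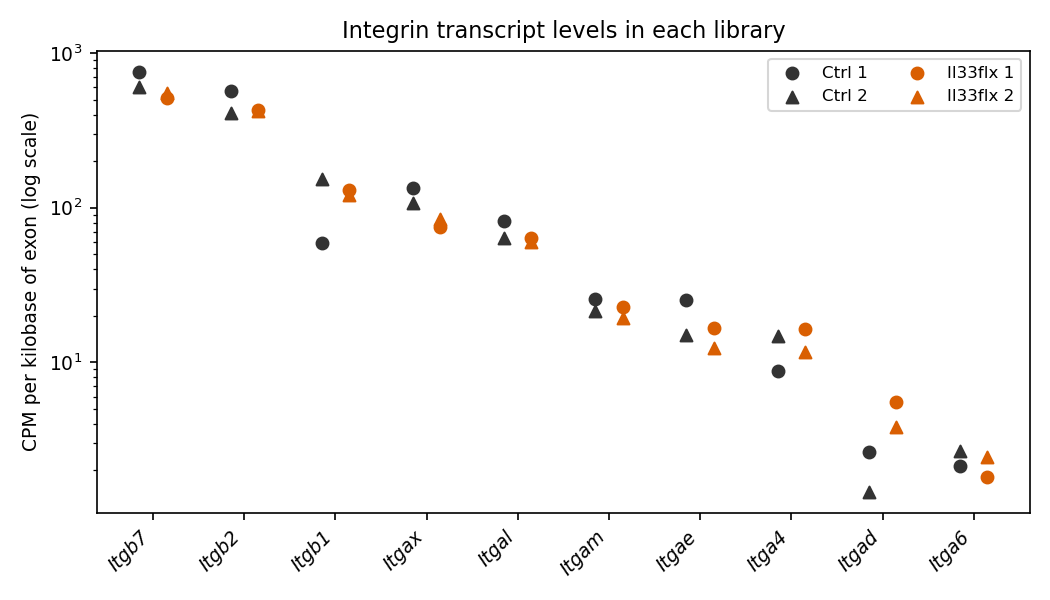
CPM per kilobase of merged exon (log scale) for each of the 10 integrin genes, ordered by mean, with Ctrl libraries in black and Il33flx libraries in orange. The beta chain genes Itgb7 and Itgb2 lie highest, Ctrl 1 lies far below the other libraries for Itgb1, and the groups lie apart for Itgax, Itgb7 and Itgad.

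The other genes of the integrin system were read from lists, with 0 genes called in any of 6 lists by edgeR, and 0 at an unadjusted p under 0.05. DESeq2, limma-voom and the replicate block also called 0 of them. With 1 library left out at a time, the median log2 fold change turned sign in 5 of the 6 lists. It ranged from -0.20 to 0.16 for the other subunits, -0.54 to 0.11 for the ligands, -0.080 to 0.079 for the activators and adaptors, -0.18 to 0.0064 for the kinases and -0.12 to 0.034 for the regulators of expression. The restrainers stayed below 0, at -0.39 to -0.02. Of 16 other integrin subunit genes 12 were tested, with 5 positive and 7 negative log2 fold changes and a median of -0.05. The most abundant that the rule names were Itga5, the fibronectin receptor chain, at 54.6, 46.3, 46.6 and 39.2 CPM in Ctrl 1, Ctrl 2, Il33flx 1 and Il33flx 2, and Itga8, at 43.6, 41.4, 36.5 and 35.6 CPM. Itga8 was lower in both Il33flx libraries (log2 difference -0.24, SE 0.19, edgeR adjusted p = 0.995). The platelet chain Itga2b had 3.68 to 7.37 CPM and Itgb4 at most 0.607 CPM. Itgb6 had no count in any library.

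Among 12 ligand genes 11 were tested, with 8 negative log2 fold changes and a median of -0.11. Icam1, the main ligand of LFA-1, read 653 (Ctrl 1) and 453 CPM (Ctrl 2), against 438 (Il33flx 1) and 406 CPM (Il33flx 2) (log2 difference -0.39, SE 0.22, edgeR adjusted p = 0.995). Without Ctrl 1 this difference was -0.095, and without Ctrl 2 it was -0.63. F11r, which encodes the junctional adhesion molecule JAM-A, had 20.7, 10.8, 10.8 and 9.53 CPM in the same order, with Ctrl 1 apart from the rest. Thy1 and Icam4 were below 1 CPM.

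Integrins are switched on from inside the cell by talin and kindlin, which bind the beta chain tail. Of 19 activator and adaptor genes 18 were tested, 9 in each direction, with a median of 0.02. Fermt3, the kindlin of blood cells, had 1054, 789, 696 and 791 CPM in Ctrl 1, Ctrl 2, Il33flx 1 and Il33flx 2, and its groups overlapped. The adaptor gene Fyb was higher in both Il33flx libraries, at 59.5 and 47.7 against 65.9 and 64.3 CPM, and Vcl, which encodes vinculin, was lower in both, at 53.9 and 53.4 against 44.9 and 47.0 CPM (log2 differences 0.28, SE 0.20, and -0.22, SE 0.18, edgeR adjusted p = 0.995 for each). The difference in Fyb was 0.46 without Ctrl 1 and 0.12 without Ctrl 2. Of 5 genes for proteins that restrain integrins, 5 had values below 0 (median -0.22, or -0.02 without Ctrl 1), but Sipa1 turned positive without Ctrl 1, without Il33flx 1 and with library size alone. Flna, the filamin that competes with talin, had 3017 and 2625 CPM in the controls against 2243 and 2182 CPM (log2 difference -0.35, SE 0.18, edgeR unadjusted p = 0.0889 and adjusted p = 0.995).

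Of 12 genes for kinases and other signalling proteins downstream of integrins 11 were tested, 8 of them with a negative log2 fold change, and the median was -0.04. The exchange factor gene Vav1 had 640 and 489 CPM in the controls against 452 and 463 CPM, and the Src family kinase gene Lyn had a log2 fold change of -0.17 with an SE of 0.18 (adjusted p = 0.995, edgeR). Without Ctrl 1 the log2 differences were -0.087 for Vav1 and -0.031 for Lyn, and without Ctrl 2 they were -0.49 and -0.29. Of 12 genes known to act on integrin expression, among them receptors for TGF-beta and GM-CSF and factors of the RUNX family, 12 were tested, with 4 positive and 8 negative values and a median of -0.06. Irf8, the transcription factor of type 1 conventional DCs, had 4817 and 3946 CPM in the controls against 3346 and 3819 CPM. Runx1 had 36.0 and 41.1 against 46.1 and 44.4 CPM. Neither was called (log2 differences -0.29 for Irf8 and 0.23 for Runx1, SE 0.19 each, edgeR adjusted p = 0.995 for each). Without Ctrl 1 these were -0.13 and 0.147.

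The genes whose pattern over the 4 libraries was most like that of Itgax were Dnaaf5, Fam234a and Ptger1, with root mean square differences of 0.015, 0.035 and 0.039 in log2 CPM centred on each gene's mean. Dnaaf5 had 43.7 and 34.9 CPM in the controls against 24.9 and 27.6 CPM. For Itgae they were Mreg, Urgcp and Igf2r, at 0.041, 0.048 and 0.051. Mreg had 45.8, 27.3, 31.9 and 24.0 CPM, with the high value in Ctrl 1 as for Itgae. Of 6394 protein-coding genes of at least 20 CPM compared, 24 lay within 0.1 of Itgax and 15 within 0.1 of Itgae. The likeness runs over 4 libraries and is a description of these libraries.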

How the data were processed

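mRNA sequencing of 4 mouse libraries (2 Ctrl, 2 Il33flx) was analysed from gene counts, deposited as whole numbers without normalization. The submitters' processing notes name GRCm38, HTSeq, STAR, DESeq2 and Trimmomatic 0.39. Other versions, annotation release, read length and strand setting are not given in the sources used here. The authors' deposited table holds their signal columns (counts divided by 1 size factor per library), log2 fold changes and standard errors, a score column (Wald statistic) and p-values. Per library, 69.9% to 72.2% of reads were in genes and 21.9% to 23.1% did not align uniquely. The 5 summary rows stayed out of library sizes and tests. GENCODE M21 named 45229 of 46078 gene rows and gave coordinates and lengths.

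Groups were compared with the quasi-likelihood test of edgeR 4.0.16 (R 4.3.3), with filterByExpr, TMM factors, no covariate and Benjamini-Hochberg adjustment over all 14995 genes tested. All 10 integrin genes passed the filter. An SE is the size of a log2 fold change over the root of its F statistic. The procedure was tested on simulated data. Alternatives were DESeq2 1.42.0, limma-voom 3.58.1, other scalings and filters, the replicate block and each library left out. Integrin genes, lists and tests were chosen with earlier results of these data known. Named from each list were up to 4 genes with the smallest p (a few results are not reported here), and for likeness the 3 nearest genes. Windows of 50 bases were compared with all GENCODE transcripts, since the read length is not known.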

Additional observations from a re-analysis of the deposited data

How the results depend on the processing

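With all 4 libraries edgeR called 1 gene higher and 0 lower in Il33flx. Library size alone, no filter and limma-voom called 0 higher, and DESeq2 called 32 higher and 21 lower. With each library left out in turn, 0 to 19 genes were called higher and 0 to 19 lower, and the count of integrin genes called higher was 0 to 1, the 1 being Itgad without Ctrl 1 (log2 fold change 1.69). With the replicate block 19 genes were called higher and 14 lower and 0 integrin genes. The replicate numbers are only numbers in the labels, and deviations of same-numbered libraries correlated at -0.03 across genes, so they were not taken as pairs. The median of all genes was 0.01 with TMM factors and 0.09 with library size alone.

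Itgax, Itgad, Itgae, Itgb7, Itgal and Itgam kept their direction in all 11 alternatives. Other log2 fold changes turned sign when a library was left out, and ranged from -0.42 to 0.056 for Itgb2, -0.068 to 0.66 for Itga4, -0.27 to 1.09 for Itgb1, -0.37 to 0.020 for Itga6, -0.67 to 0.014 for Skap1, -0.20 to 0.15 for Sipa1, -1.06 to 0.078 for Src, -0.48 to 0.058 for Csf2rb and -0.12 to 0.70 for Tgfbr1. These turned without Ctrl 1, except Itga6 (without Il33flx 1), and Itga4, Sipa1 and Tgfbr1 turned without either. With library size alone Sipa1 was at 0.047. The cause was not tested, and none of these was called. With a library left out, the lone library of its group is assumed to vary like the other group. A level of 0 counts allows up to 3 counts, for counting error only.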
